A study of Mus musculus with 9 samples.

Results

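The nuclear genes that encode subunits of the 5 mitochondrial respiratory chain complexes were followed in mouse yolk sac at embryonic day 9.5. They were taken by symbol from probe sets that name 1 gene: Nduf genes of series a, b, c, s and v (complex I), Sdha to Sdhd (complex II), Uqcr genes and Cyc1 (complex III), Cox4 to Cox8 genes that carry the letter a, b or c (complex IV), and Atp5 genes (complex V). Assembly factors named Ndufaf or Sdhaf were left out. This gave 80 of the 19933 genes on the array, 35 in complex I, 4 in complex II, 9 in complex III, 15 in complex IV and 17 in complex V. A gene with several probe sets was represented by the probe set with the highest mean. Of the 80 members, 78 passed the filter on dim signals. Cox7b2 and Cox8b, isoforms of complex IV subunits, were dim and were not tested. Yolk sacs came from embryos that were wild type (Rnh1+/+, WT), heterozygous (Rnh1+/-, HET) or knockout (Rnh1-/-, KO) for Rnh1, which encodes ribonuclease inhibitor, a cytosolic protein that blocks secreted-type ribonucleases. All 3 groups shared the mixed SV 129/C57BL/6 background, and each had 3 samples with 1 array per sample. The labels give neither the deleted part of Rnh1 nor embryo sex, nor how many yolk sacs made up a sample, so a p-value speaks only of the spread among the samples measured, which may be technical. Yolk sacs were freed of maternal tissue, per the labels.

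The respiratory chain sits in the inner mitochondrial membrane. Complexes I and II pass electrons from NADH and succinate to coenzyme Q, complex III passes them on to cytochrome c, and complex IV hands them to oxygen. Complexes I, III and IV pump protons, and complex V, the ATP synthase, uses the returning protons to make ATP. Most subunits are encoded in the nucleus and imported, while a few core subunits are encoded in mitochondrial DNA. The yolk sac holds an absorptive visceral endoderm, mesoderm with vessels, and the first, primitive red cells.

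Promoters of the members were read as a sequence context for genes that are often discussed as jointly controlled by the factors NRF1, GABPA and YY1. RefSeq windows from 250 bases before to 50 bases after the start site (GRCm38.p6) were at hand for 66 of the 80 members. Letters were searched on both strands. The NRF1 core TGCGCA was present in 17 of 66 members (25.8%), against 15.1% of the 10510 tested genes with a window. The longer NRF1 letters GCGCATGC, which can overlap that core, were present in 10 members (15.2%), against 5.51% of tested genes. The GABPA core CCGGAAG was found in 17 members (25.8%) against 18.3% of tested genes, and its longer form CCGGAAGT in 5 (7.58%) against 8.14%. The YY1 letters AAGATGGCG were found in 7 members (10.6%) against 3.24%. Among the 16 members with a window that were lower in KO than in WT (below), 7 held the NRF1 core (43.8%), and among the other 50 members 10 did (20%). The longer NRF1 letters had the opposite order (1 of 16, 6.25%, against 9 of 50, 18%), as did the GABPA core (3 of 16, 18.8%, against 14 of 50, 28%). The longer GABPA form (6.25% against 8%) and the YY1 letters (12.5% against 10%) were close to level. These shares are descriptions without a test, and a match is not a binding site. The windows of 4 members that were lower in KO are shown, chosen after their matches were seen, with the matched letters in capitals and each sequence on the gene's own strand. Uqcrc1, a core protein of complex III, is at chr9:108936398-108936697 (plus strand), and its capitals are 2 NRF1 cores abutting in a palindrome that also holds GCGCATGC. Sdhd, a membrane anchor of complex II, is at chr9:50603800-50604099 (minus strand), with 2 NRF1 cores and 1 reversed GABPA core. Ndufs7, an iron-sulphur subunit of complex I, is at chr10:80249199-80249498 (plus strand), with the YY1 letters. Ndufb6, a membrane-arm subunit of complex I, is at chr4:40279372-40279671 (minus strand), with 1 NRF1 core and 1 reversed GABPA core.
Uqcrc1: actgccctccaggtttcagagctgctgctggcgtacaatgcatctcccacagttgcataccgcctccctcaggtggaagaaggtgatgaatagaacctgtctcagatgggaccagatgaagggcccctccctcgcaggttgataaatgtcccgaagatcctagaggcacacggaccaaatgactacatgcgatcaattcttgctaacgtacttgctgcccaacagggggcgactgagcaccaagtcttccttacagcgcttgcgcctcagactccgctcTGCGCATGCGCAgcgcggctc
Sdhd: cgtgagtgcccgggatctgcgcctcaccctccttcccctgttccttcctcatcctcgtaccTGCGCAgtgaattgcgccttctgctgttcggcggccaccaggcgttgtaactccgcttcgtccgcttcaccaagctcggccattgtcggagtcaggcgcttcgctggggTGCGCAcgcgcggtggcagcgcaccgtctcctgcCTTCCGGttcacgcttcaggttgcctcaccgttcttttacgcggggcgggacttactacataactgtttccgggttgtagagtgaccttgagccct
Ndufs7: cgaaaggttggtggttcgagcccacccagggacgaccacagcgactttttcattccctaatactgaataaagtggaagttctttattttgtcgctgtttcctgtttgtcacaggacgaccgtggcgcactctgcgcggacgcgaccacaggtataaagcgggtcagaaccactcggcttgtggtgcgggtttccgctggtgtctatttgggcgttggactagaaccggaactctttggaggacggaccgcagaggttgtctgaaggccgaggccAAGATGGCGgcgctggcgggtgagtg
Ndufb6: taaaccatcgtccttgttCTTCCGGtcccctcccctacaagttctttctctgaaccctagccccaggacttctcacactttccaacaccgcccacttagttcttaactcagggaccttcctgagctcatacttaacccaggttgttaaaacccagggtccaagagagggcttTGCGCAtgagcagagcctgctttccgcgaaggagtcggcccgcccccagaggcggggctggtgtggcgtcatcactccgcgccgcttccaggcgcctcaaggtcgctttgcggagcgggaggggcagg

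Values are log2 signals. Rnh1 itself was at 10.38 ± 0.05 on the WT arrays (mean ± SD, n = 3 per genotype), at 9.75 ± 0.01 on the HET arrays and at 6.64 ± 0.32 on the KO arrays, so its signal followed the labelled genotypes. KO was lower than WT by a log2 difference of -3.73 (SE 0.13, limma adjusted p = 4.61e-06), and the HET difference of -0.62 did not pass (adjusted p = 0.939). Of the 78 tested members, 63 lay above the upper quartile of their array on all 9 arrays, as did 35.7% of all genes tested. On the second principal component KO 1 (-20.3), HET 3 (12.74) and WT 2 (-11.59) lay farthest from 0. Counts are also given without WT 2 and KO 1 together, a pair set from earlier results of these data, and without each array. Xist, expressed from an inactive X chromosome, was low on WT 1, HET 1 and HET 3, and the Y-linked Eif2s3y was low on WT 3 and KO 3. Both were high on WT 2, HET 2, KO 1 and KO 2, which were therefore not assigned to 1 sex. These signals were not balanced between the groups. Eif2s3y as a covariate is a signal level and not a label of sex.

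In KO yolk sacs 20 of the 78 tested members were lower than in WT and 0 were higher (limma, Benjamini-Hochberg adjusted p under 0.05 over 13207 genes). That is 25.6% of the members, against 15.2% of all genes tested that were lower, while 8.27% of all genes were higher. The median log2 difference of the members was -0.11, against -0.00 over all genes tested, with a range from -0.51 for Ndufs1 to 0.21 for Atp5k. A negative difference was found for 62 members and a positive one for 16. At an unadjusted p under 0.05, 30 members were lower and 3 higher. All 3 KO arrays lay below all 3 WT arrays for 38 members, which all genes did in 24.7%, and above them for 5, which all genes did in 15.8%. By complex, 11 of 35 members of complex I were lower, 2 of 4 of complex II, 2 of 9 of complex III, 0 of 13 of complex IV and 5 of 17 of complex V. The medians were -0.13, -0.17, -0.11, -0.07 and -0.12 in the same order, and whether the complexes differed was not tested. Since whole yolk sacs were measured, fewer cells of a type and less RNA per cell cannot be told apart.

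The count of lower members depended on single arrays, most on those of WT and on KO 2 and KO 3. Leaving out WT 1, 2 or 3 gave 6, 7 and 12, leaving out KO 2 or KO 3 gave 13 and 9, and the count was 12 with WT 2 and KO 1 both left out. Without HET 1, HET 2 or HET 3, which are not part of this comparison but share in the estimate of the spread, it was 15, 17 and 19. Without KO 1 it was 20. The shares of all genes that were lower in these settings were 8.75% without WT 1, 8.59% without WT 2, 12.9% without WT 3, 10.8% without KO 2, 11.9% without KO 3 and 12.5% without WT 2 and KO 1. They were 13%, 12.8% and 14.6% without HET 1, HET 2 or HET 3, and 18.4% without KO 1. Read against these, the members' count was near or below the share of all genes without WT 1, WT 2 or KO 3. With arrays centred on their medians, 27 members were lower and 0 higher, and 2529 of all genes were lower and 577 higher, against 2009 lower and 1092 higher in the values as deposited. After quantile normalization 13 members were lower and 3 higher (Ndufa7, Atp5g2 and Atp5mpl), and after cyclic loess 13 were lower and 2 higher (Ndufa7 and Atp5g2). Of all genes, 14.7% were lower after quantile normalization and 14.3% after cyclic loess. The members' count of lower calls was thus little above the share of all genes in both scalings.

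**Figure D1:**
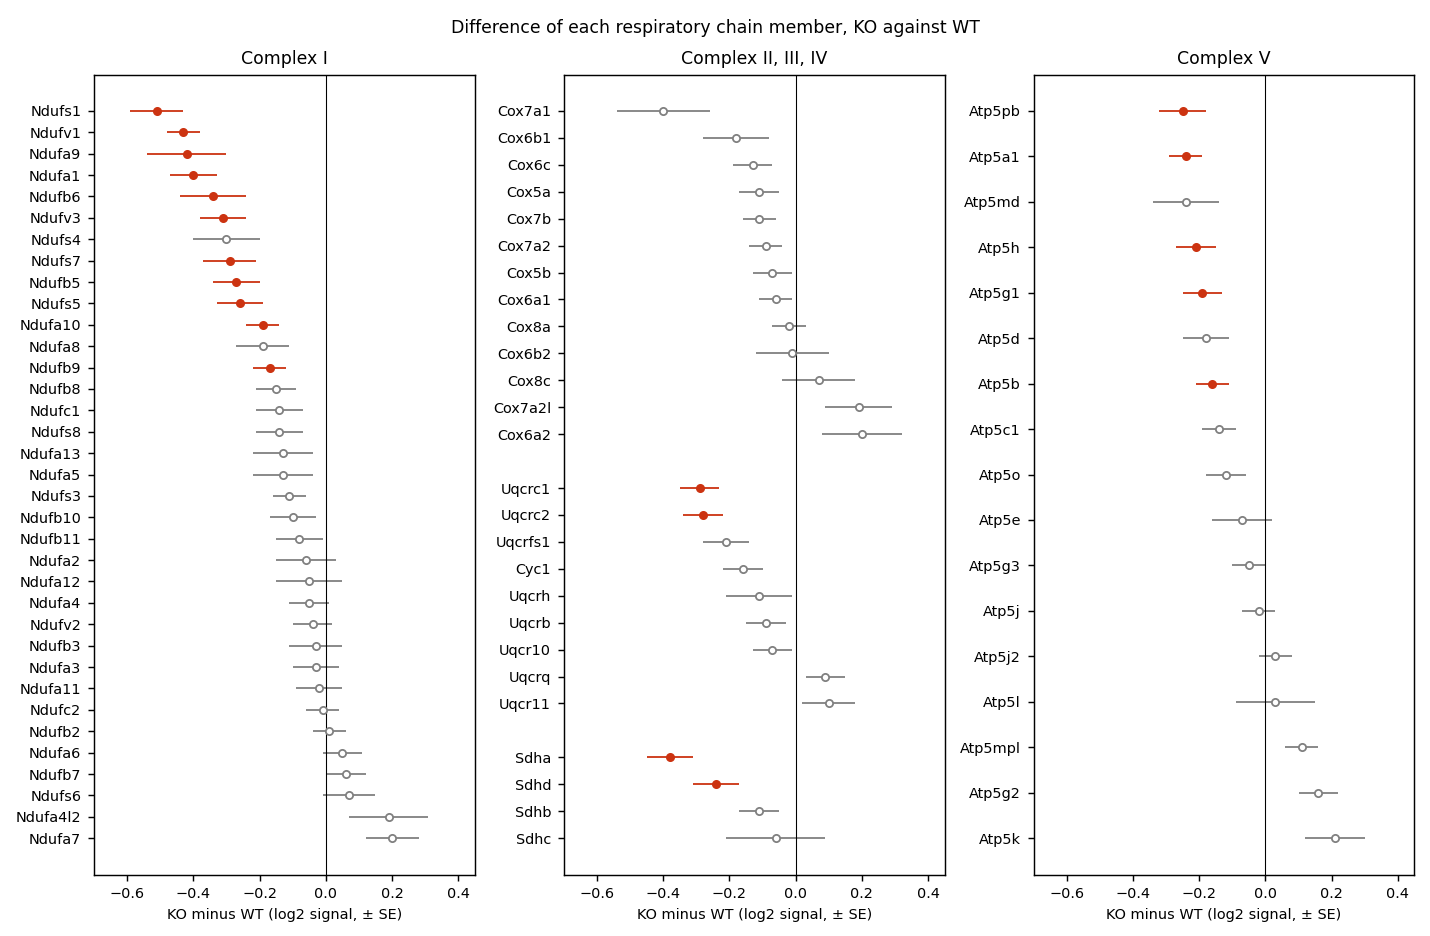
Log2 difference between KO and WT (x axis, bars are ± SE of the limma fit, 3 arrays per genotype) for each of the 78 tested members, by complex. Filled red points passed at adjusted p under 0.05; all 20 lie left of 0, and none belongs to complex IV in the fit shown.

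Averaged over the members on each array and set against the WT mean, the WT arrays were at -0.01, 0.03 and -0.02, and the HET arrays at 0.02, 0.00 and 0.00. The KO arrays were at -0.09, -0.10 and -0.14, below every WT and HET array. All genes tested gave -0.02, -0.04 and -0.03 on the same KO arrays. Complex II spread most among the KO arrays (-0.11, -0.20 and -0.28), and complex IV lay nearest to WT (-0.08, -0.02 and -0.08), where KO 2 equalled the lowest WT array.

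**Figure D2:**
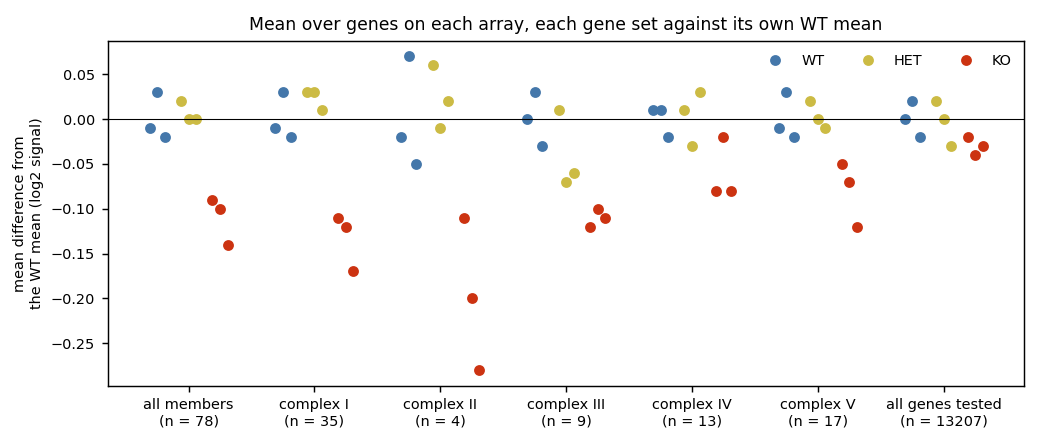
Mean log2 difference from the WT mean (y axis) on each of the 9 arrays, over all 78 tested members, over the members of each complex and over all 13207 genes tested; each point is 1 array. The KO points of the members lie at -0.09, -0.10 and -0.14, below the WT and HET points.

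In complex I the lowest differences were those of Ndufs1 and Ndufv1, subunits of the part that takes electrons from NADH. Ndufs1, the large iron-sulphur subunit of the NADH-oxidising module, read 10.26, 10.48 and 10.27 on the WT arrays, 10.37, 10.22 and 10.27 on the HET arrays and 9.90, 9.72 and 9.87 on the KO arrays. Each KO array lay below each WT and HET array. KO was lower by a log2 difference of -0.51 (SE 0.08, adjusted p = 0.00377), a signal of 70.4% of WT. Ndufv1, the flavin-binding subunit that oxidises NADH, had WT values of 10.91, 10.92 and 10.84, HET values of 10.92, 10.84 and 10.85 and KO values of 10.43, 10.46 and 10.51. Its groups were tight, KO stood clear of both others, and the log2 difference from WT was -0.43 (SE 0.05, adjusted p = 0.00180; 74.5% of WT). Ndufv3, a small accessory subunit beside Ndufv1, was at -0.31 (SE 0.07, adjusted p = 0.0168). Another member of the same module, Ndufa7, had one of the highest differences of the complex, 0.20 (SE 0.08, adjusted p = 0.109), so the module held differences of both signs. Under a grouping made after the values were seen, 3 of 10 members of the NADH-oxidising module were lower, 1 of 4 of the coenzyme Q module (Ndufs7) and 7 of the other 19, with Ndufa4 and Ndufa4l2 left out.

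Ndufs7, whose iron-sulphur centre passes electrons to coenzyme Q, had WT values of 12.61, 12.63 and 12.61, HET values of 12.64, 12.83 and 12.72 and KO values of 12.16, 12.40 and 12.43. KO lay below WT without overlap, at -0.29 (SE 0.08, adjusted p = 0.0335). Ndufa9, an accessory subunit where the matrix arm meets the membrane arm, had WT values of 11.02, 11.14 and 11.04, HET values of 11.10, 10.80 and 10.88 and KO values of 10.89, 10.44 and 10.61. The HET arrays overlapped both other groups, and the KO difference from WT was -0.42 (SE 0.12, adjusted p = 0.0323). Ndufa1, a small X-linked membrane-arm subunit, had WT values of 8.50, 8.65 and 8.49, HET values of 8.42, 8.34 and 8.34 and KO values of 8.27, 8.13 and 8.04. Its 3 groups did not overlap, with HET between WT and KO, and KO was at -0.40 (SE 0.07, adjusted p = 0.00689; 76.0% of WT). The call on Ndufa1 held when Eif2s3y entered the model as a covariate. Eif2s3y is Y-linked, and Xist, at 11.05 to 11.67 on the KO arrays and 5.69 on WT 1, was not entered. The part of X chromosome dose in this difference was not tested. The other X-linked members, Ndufb11 (-0.08) and Cox7b (-0.11), did not pass.

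The remaining complex I members that were lower in KO are accessory subunits of the membrane arm. Their log2 differences were -0.34 for Ndufb6, -0.27 for Ndufb5, -0.26 for Ndufs5, -0.19 for Ndufa10 and -0.17 for Ndufb9, with adjusted p from 0.0239 to 0.0376. Ndufs4, an accessory subunit at the junction of the NADH and coenzyme Q modules, was at -0.30 and missed the threshold (adjusted p = 0.0556), which it passed in 5 settings, among them without HET 1 (0.0498). At the other end lay Ndufa7, Ndufa4l2 (0.19, adjusted p = 0.268) and Ndufs6 (0.07, adjusted p = 0.519), none of which passed. Ndufs6 was at -0.02 without KO 1. Ndufa4, named for complex I but now placed in complex IV, was at -0.05 (adjusted p = 0.511), and its relative Ndufa4l2 was near the filter level. Counting both with complex IV left 11 of 33 lower in complex I and 0 of 15 in complex IV.

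The calls on Ndufs1, Ndufv1 and Ndufa1 held in all 21 alternative settings, the omission of each array included. These 21 settings kept the threshold of 0.05 and asked for no least fold change. Without WT 1 and without WT 2 only these 3 of the 11 were left in complex I, and 5 members of the complex were lower without WT 3 and 5 without KO 3. The call on Ndufv3 was lost when WT 1 (adjusted p = 0.0645) or WT 2 (0.0524) was dropped. Ndufb5 lost it without WT 1, WT 2 or KO 3 (0.0645 to 0.0842), Ndufs7 without any 1 of the 3 WT arrays (0.0722 to 0.0924), and Ndufs5 without any 1 WT array or KO 3 (0.0550 to 0.0916). Ndufa9 and Ndufb6 lost it without any 1 WT array, KO 2 or KO 3, with adjusted p up to 0.1 and 0.103. Over all 21 settings, filter and scaling included, Ndufb5 lost it in 4, Ndufb6 in 6, Ndufs5 and Ndufa9 in 7 and Ndufs7 in 8. For Ndufs7 these included no filter (adjusted p = 0.0519), quantile normalization (0.0602) and cyclic loess (0.0797), and for Ndufs5 quantile normalization (0.0503). Ndufa10 lost it in 11 and Ndufb9 in 14 of the 21 settings.

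**Figure D3:**
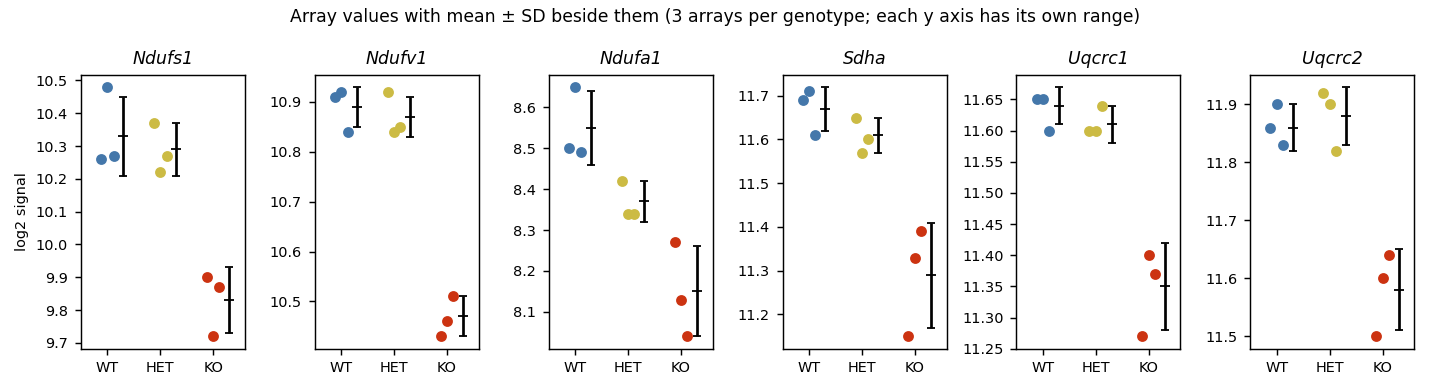
Log2 signal on each array (y axis, a separate range per gene) of the 6 members whose KO against WT call held in all 21 alternative settings, with mean ± SD of 3 arrays beside the points. In each of the 6 genes the 3 KO arrays lie below all WT and HET arrays.

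In complex II, Sdha and Sdhd were lower in KO and Sdhb and Sdhc did not pass. Sdha, the flavoprotein that oxidises succinate and links the chain to the tricarboxylic acid cycle, had WT values of 11.69, 11.71 and 11.61, HET values of 11.65, 11.57 and 11.60 and KO values of 11.15, 11.33 and 11.39. KO was lower than every other array, with a difference of -0.38 (SE 0.07, adjusted p = 0.00642; 76.7% of WT). Sdhd had WT values of 11.10, 11.16 and 11.03, HET values of 11.21, 11.16 and 11.21 and KO values of 10.94, 10.89 and 10.75. Its KO arrays lay below the others by a narrower gap, with a difference of -0.24 (SE 0.07, adjusted p = 0.0325). Sdhb, the iron-sulphur subunit, was at -0.11 (adjusted p = 0.190). Sdhc, the second membrane anchor, read 10.75, 10.91 and 10.76 in WT against 11.16, 10.64 and 10.45 in KO. KO 1 was above and the other KO arrays were below all WT arrays, and the difference was -0.06 (SE 0.15, adjusted p = 0.810). Without KO 1 it was -0.26 and passed (adjusted p = 0.0410), and without KO 3 it was 0.09. The call on Sdha held in all 21 settings, while that on Sdhd was lost in 9, among them the omission of WT 1 or 2, HET 1, or KO 2 or 3 (0.0526 to 0.108). Without KO 1 the median of the complex was -0.27.

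In complex III the 2 core proteins were lower in KO. Uqcrc1, whose promoter is printed above, had WT values of 11.65, 11.65 and 11.60, HET values of 11.60, 11.60 and 11.64 and KO values of 11.27, 11.40 and 11.37. WT and HET overlapped and KO stood below both, at -0.29 (SE 0.06, adjusted p = 0.00794; 82.0% of WT). Uqcrc2 had WT values of 11.86, 11.90 and 11.83, HET values of 11.92, 11.90 and 11.82 and KO values of 11.50, 11.60 and 11.64. It showed the same arrangement of groups, at -0.28 (SE 0.06, adjusted p = 0.00981; 82.2% of WT), and both calls held in all 21 settings. The catalytic subunits had negative differences that did not pass: Uqcrfs1, the Rieske iron-sulphur protein, was at -0.21 (adjusted p = 0.0556), and Cyc1, the haem protein cytochrome c1, at -0.16 (adjusted p = 0.0642). Uqcrfs1 passed in 5 alternative settings: a filter at the array median (adjusted p = 0.0452), centred arrays (0.0377), quantile normalization (0.0488), array weights (0.0149) and the omission of KO 1 (0.0403). Cyc1 passed with centred arrays (0.0302) and a trended and robust prior (0.0272). With centred arrays 4 members of the complex were lower. The small subunits Uqcr11 (0.10), Uqcrq (0.09) and Uqcr10 (-0.07) had the highest differences, and none passed.

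In complex IV 0 of 13 tested members passed, and at an unadjusted p under 0.05 there were 2 lower and 0 higher. With a trended and robust prior 3 passed as lower, Cox7b (adjusted p = 0.0352), Cox6c (0.0391) and Cox7a1 (0.0495), so the count of 0 depends on that choice. Most subunits had small negative differences, among them Cox6c (-0.13), Cox5a (-0.11), Cox7b (-0.11), Cox7a2 (-0.09) and Cox5b (-0.07). Cox6b1, a subunit on the intermembrane side, was at -0.18 (adjusted p = 0.211). The lowest was Cox7a1, the isoform typical of heart and skeletal muscle, which had WT values of 8.96, 9.20 and 8.78, HET values of 9.04, 9.02 and 8.77 and KO values of 8.49, 8.82 and 8.43. KO 2 overlapped the WT and HET arrays, and the difference of -0.40 (SE 0.14) did not pass (adjusted p = 0.0620). It passed without WT 3 (-0.50, adjusted p = 0.0434) and without KO 2 (-0.52, adjusted p = 0.0343), with centred arrays (-0.47, adjusted p = 0.0412) and with the replicate number as a block (-0.40, adjusted p = 0.0116), and in each of these 1 member of the complex was lower. The broadly expressed partner Cox7a2 was at -0.09 (adjusted p = 0.232), and Cox7a2l, a related protein of respiratory supercomplexes, at 0.19 (adjusted p = 0.190). Cox6a2, the muscle isoform of the subunit that Cox6a1 encodes elsewhere, was at 0.20 (adjusted p = 0.254), and Cox6a1 was at -0.06 (adjusted p = 0.380). Cox6b2 (-0.01) and Cox8c (0.07), isoforms described mainly in testis, and Cox8a (-0.02) did not pass either. The signs of Cox6a1, Cox6b2, Cox8a and Cox8c were not stable: each was turned or brought to 0 by another scaling or by leaving out 1 array.

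In complex V 5 of 17 members were lower. Atp5a1, the α subunit of the catalytic head, had WT values of 12.24, 12.27 and 12.24, HET values of 12.25, 12.22 and 12.33 and KO values from 11.96 to 12.06. KO lay clear of both other groups, at -0.24 (SE 0.05, adjusted p = 0.0139). Atp5b, the catalytic β subunit, had WT values of 12.91, 12.96 and 12.91, HET values of 12.90, 12.89 and 12.83 and KO values of 12.74, 12.80 and 12.76. The KO arrays were again lowest, and at -0.16 (SE 0.05) the difference passed narrowly (adjusted p = 0.0499). The other subunits of the head and central stalk, Atp5d (-0.18), Atp5c1 (-0.14) and Atp5e (-0.07), did not pass, so all 5 had negative differences and 2 passed. In the peripheral stalk, which holds the head in place, Atp5pb (-0.25, SE 0.07, adjusted p = 0.0234) and Atp5h (-0.21, SE 0.06, adjusted p = 0.0329) were lower. Atp5o (-0.12) and Atp5j (-0.02) did not pass.

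The ring of c subunits, which turns as protons pass, is built from 1 mature protein encoded by 3 genes, and their differences did not share a sign. Atp5g1 had WT values of 12.45, 12.51 and 12.41, HET values of 12.50, 12.41 and 12.51 and KO values of 12.26, 12.30 and 12.24. All KO arrays were below all others, and the difference was -0.19 (SE 0.06, adjusted p = 0.0379). Atp5g2 had WT values of 12.07, 12.11 and 12.10, HET values of 12.17, 12.27 and 12.17 and KO values of 12.30, 12.29 and 12.17. Both HET and KO lay above WT, and the KO difference of 0.16 (SE 0.06) did not pass (adjusted p = 0.0766). It passed after quantile normalization (0.20, adjusted p = 0.0227) and cyclic loess (0.22, adjusted p = 0.0160). It also passed with a trended and robust prior (0.16, adjusted p = 0.023) and with array weights (0.18, adjusted p = 0.0282). Atp5g3 read 11.98, 11.97 and 11.90 in WT and 11.86, 11.95 and 11.88 in KO, which overlapped (-0.05, adjusted p = 0.498). A further probe set of Atp5g1 (-0.14) and both further probe sets of Atp5g2 (0.17 and 0.18) had the sign of the one used. The difference between these genes was not tested.

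Membrane accessory subunits, several of which bind ATP synthase dimers together, had 0 of 5 lower. Atp5k (0.21, adjusted p = 0.111) had the highest difference of all members, and it passed with array weights (0.30, adjusted p = 0.0136). Atp5mpl was at 0.11 (adjusted p = 0.180) and Atp5md at -0.24 (adjusted p = 0.105). Atp5l was at 0.03 and was -0.10 without KO 1. The 5 calls in complex V depended on single arrays. Their number was 0 when WT 1 was left out, 1 for WT 2, KO 2 or KO 3, 2 for WT 3 or HET 1, and 3 for HET 2 or KO 1. Dropping WT 1 ended the call on Atp5a1 (adjusted p = 0.0538), and dropping WT 1, WT 2, KO 2 or KO 3 ended that on Atp5pb (0.0579 to 0.0819). Atp5h lost it in 12 settings, Atp5g1 in 15 and Atp5b in 16 of 21, Atp5b without each of the 9 arrays (0.0596 to 0.147).

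**Figure D4:**
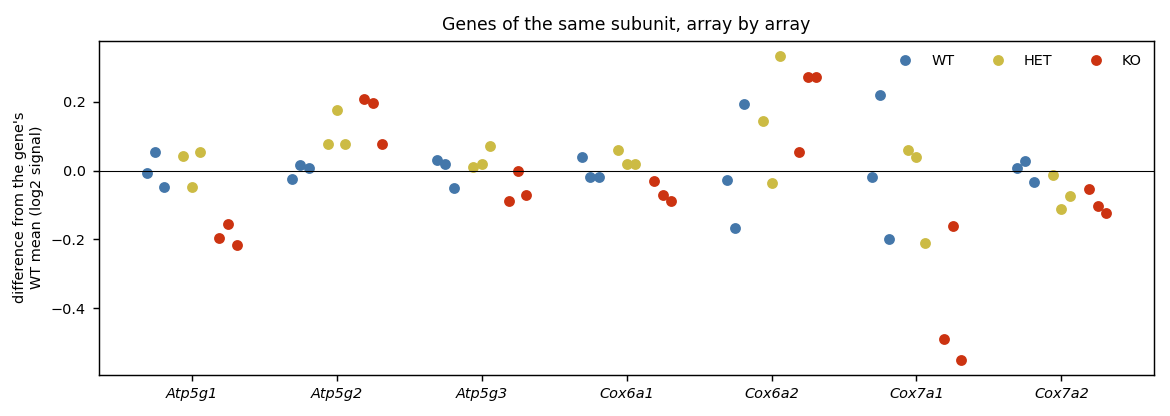
Log2 difference from the gene's own WT mean (y axis) on each array for the 3 genes of the ATP synthase c subunit and for the paired isoforms Cox6a1 and Cox6a2, and Cox7a1 and Cox7a2; each point is 1 array. The KO points of Atp5g1 lie below and those of Atp5g2 above the WT points, while the points of Cox7a1 and Cox6a2 spread widely in all 3 genotypes.

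Heterozygous yolk sacs gave no call: 0 of 78 members passed against WT, as did 0% of all genes tested by limma. The median difference was 0.01, and at an unadjusted p under 0.05 there was 1 member lower and 1 higher. These were Ndufa1 at -0.18 (unadjusted p = 0.0436) and Ndufa3, a membrane-arm accessory subunit, at 0.17 (unadjusted p = 0.0287), both with an adjusted p of 0.939. Ndufa3 had WT values of 10.59, 10.67 and 10.69, HET values of 10.72, 10.90 and 10.84 and KO values of 10.63, 10.68 and 10.56. HET was above both other groups there, and KO overlapped WT. The third smallest unadjusted p belonged to Atp5l, a dimer subunit of the ATP synthase, at -0.25 (unadjusted p = 0.0793). The HET arrays lay below all WT arrays for 4 members and above them for 11, against 5.98% and 4.25% of all genes. Rnh1 itself did not pass in this comparison (-0.62, SE 0.13, limma adjusted p = 0.939), although its HET arrays (9.75 to 9.77) lay below its WT arrays (10.32 to 10.42). The lack of calls therefore does not show that HET equals WT.

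Against HET, 18 of 78 members were lower in KO and 0 were higher (23.1% lower, against 13.6% of all genes lower and 8.17% higher). The median was -0.10, against -0.01 over all genes. The smallest adjusted p values were those of Ndufv1 (-0.40, SE 0.05, adjusted p = 0.00185), Ndufs1 (-0.46, SE 0.08, adjusted p = 0.00526) and Ndufa10 (-0.28, SE 0.05, adjusted p = 0.00687). Sdha (-0.32), Sdhd (-0.33), Uqcrc1 (-0.27), Uqcrc2 (-0.30), Atp5a1 (-0.26) and Atp5g1 (-0.21) also passed, as did Ndufs5, Ndufs7, Ndufv3, Ndufb5, Ndufb6 and Ndufb9. Atp5d (-0.29), Atp5c1 (-0.16) and Ndufa8 (-0.27), a subunit facing the intermembrane space, passed against HET and not against WT, although all 3 also passed against WT with centred arrays. Ndufa1 (-0.22, adjusted p = 0.0639), Ndufa9 (-0.28, adjusted p = 0.125), Atp5pb (-0.15), Atp5h (-0.16) and Atp5b (-0.11) passed against WT and not against HET. Both comparisons use the same KO arrays. Complex IV again had 0 of 13 that passed, with 1 lower and 0 higher at an unadjusted p under 0.05. All KO arrays lay below all HET arrays for 39 members (21.4% of all genes) and above them for 2 (15.7%). Without HET 1 the count of lower members was 11, and 7.13% of all genes were lower. When KO 1 was left out, 1 member was higher.

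Some subunits lie outside the naming pattern. Cox4i1 (-0.10), its isoform Cox4i2 (0.21, adjusted p = 0.0851) and Ndufab1, the acyl carrier protein of complex I (-0.13), did not pass between KO and WT. Cox4i2 passed without KO 1 (0.28, adjusted p = 0.0188). The subunits encoded in mitochondrial DNA that had a probe set, ND3 of complex I (0.11, adjusted p = 0.518) and COX2 of complex IV (0.05, adjusted p = 0.718), did not pass either. On KO 1, ND3 read 12.57, above the other 8 arrays (11.97 to 12.30), and without that array its difference was -0.02. Probe sets that name several genes were kept apart: those of Cox7c (-0.10 to -0.12) and Ndufb4 (-0.07 and -0.11) did not pass, and that of Ndufs5 and its pseudogene was lower (-0.48, SE 0.08, adjusted p = 0.00521). For the 16 members with further probe sets, 22 of 24 further probe sets had the sign of the one used, the exceptions being 1 probe set of Atp5l (-0.01) and 1 of Ndufa11 (0.05).

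The enzymes that supply the chain with NADH and succinate were counted in the same fit. Of 18 genes of the tricarboxylic acid cycle and pyruvate entry, 16 were lower and 0 higher (88.9% lower, against 15.2% of all genes; median -0.32). Dld, the dihydrolipoamide dehydrogenase that pyruvate and oxoglutarate dehydrogenase share, had WT values of 10.42, 10.49 and 10.32, HET values of 10.38, 10.27 and 10.16 and KO values of 9.85, 9.73 and 9.83. KO was below every other array, at -0.61 (SE 0.08, adjusted p = 0.00171; 65.7% of WT). Ogdh, the first subunit of oxoglutarate dehydrogenase (-0.37), Suclg2, a succinyl-CoA ligase subunit (-0.49), and Pdha1, the E1 α subunit of pyruvate dehydrogenase (-0.36), were lower too, with adjusted p from 0.00210 to 0.00376. Pdhx and Idh3g did not pass. The count was 7 without WT 1, 8 without WT 2 and 10 without KO 2 or KO 3, and 10 with WT 2 and KO 1 both left out. The shares of all genes that were lower in these settings were 8.75%, 8.59%, 10.8%, 11.9% and 12.5%, in the same order.

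Assembly factors were counted apart from the subunits. For complex I, 6 of 16 were lower and 0 higher (median -0.16), among them Acad9 (-0.32), Ndufaf7 (-0.48), Timmdc1 (-0.36) and Foxred1 (-0.27). For complexes II to V, 10 of 35 were lower and 0 higher (median -0.15). Lrpprc, which stabilises mitochondrial messenger RNAs, was the lowest at -0.57 (SE 0.05, adjusted p = 0.00102), followed by Cox15 of haem a synthesis (-0.46), while Bcs1l of complex III (-0.30) and Coa5 of complex IV (-0.23) also passed. Both Cox15 and Coa5 serve complex IV, of which 0 tested subunits passed. These were 37.5% and 28.6%, against 15.2% of all genes tested. Without WT 1 the counts were 3 and 3, and for complexes II to V the count was 4 without WT 2 and 6 without KO 2. Of all genes, 8.75% were lower without WT 1, 8.59% without WT 2 and 10.8% without KO 2.

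Among electron carriers and genes of coenzyme Q synthesis, 6 of 18 were lower and 0 higher (33.3%, against 15.2% of all genes; median -0.12). Etfb (-0.43) and Etfdh (-0.42), which bring electrons from fatty acid oxidation, Coq3 (-0.38), a methyltransferase of coenzyme Q synthesis, and Gpd2 (-0.33), the mitochondrial glycerol phosphate dehydrogenase, passed. Cycs, cytochrome c itself, was at -0.09 (adjusted p = 0.407). Of 29 genes for outer membrane, import, carriers and chaperones, 6 were lower and 0 higher (20.7%, near the share of all genes), among them Opa1, the inner membrane fusion protein (-0.39), the ATP/ADP carriers Slc25a4 (-0.25) and Slc25a5 (-0.24), and the chaperonin Hspd1 (-0.21). That count was 3 without any 1 of the WT arrays, where 8.59% to 12.9% of all genes were lower.

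Mitochondrial gene expression and its nuclear regulators had 5 of 22 lower (22.7%) and 3 higher (13.6%), with a median of -0.06. All genes tested also had calls in both directions (15.2% lower and 8.27% higher). Ppargc1a, a coactivator of mitochondrial biogenesis, had WT values of 8.33, 8.65 and 8.11, HET values of 8.88, 8.72 and 8.29 and KO values of 7.38, 7.42 and 7.15. KO was below all other arrays, at -1.04 (SE 0.17, adjusted p = 0.00420). Tfb1m, a methyltransferase of mitochondrial ribosomal RNA (-0.51), and Top1mt, the mitochondrial topoisomerase (-0.33), were lower, and Polg2, the accessory subunit of the mitochondrial DNA polymerase, was higher (0.47, adjusted p = 0.0165). Nrf1 (0.17, adjusted p = 0.109) and Gabpa (-0.16, adjusted p = 0.151), whose recognition letters were searched above, did not pass, although Nrf1 did after quantile normalization (0.20, adjusted p = 0.0326). Without WT 1 there were 2 lower and 0 higher in this list, without WT 2 2 and 1, without WT 3 the count of higher genes was 0, and without KO 2 there were 2 and 0. Proteins of the mitochondrial ribosome had few calls, with 4 of 77 lower (5.19%) and 1 higher (median -0.06). Mrpl15 (-0.25), Mrpl48 (-0.24) and Mrpl14 (-0.22) of the large subunit were lower, and Mrps16 of the small subunit was higher (0.26, adjusted p = 0.0112). The lower count there was 0 without WT 1, WT 2 or KO 3, 1 without HET 1 or HET 2, 2 without WT 3 or HET 3, and 9 without KO 1. In HET against WT, 0 genes of any of these lists passed.

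**Figure D5:**
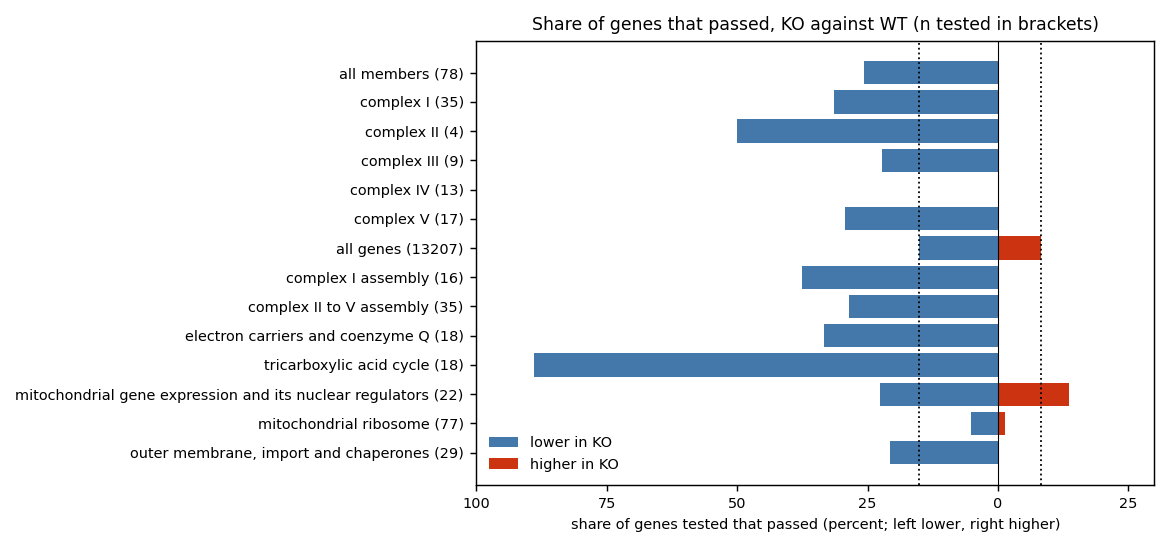
Share of tested genes (x axis, percent) that were lower (left, blue) or higher (right, red) in KO than in WT at adjusted p under 0.05, for the members, each complex and the other mitochondrial lists; dotted lines mark all genes tested (15.2% lower, 8.27% higher). The tricarboxylic acid cycle reaches 88.9%, the members 25.6%, the mitochondrial ribosome 5.19% and complex IV 0%.

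Markers of the cell types a yolk sac sample can hold were read in the same fit. Of all genes tested, 15.2% were lower and 8.27% higher in KO than in WT. The marker counts were not tested against these shares. The visceral endoderm and primitive erythroid lists, which define the tissue, had means above the upper quartile of the arrays (9.08 to 9.21). Of 13 tested visceral endoderm markers 3 were lower in KO (Afp, Apoa4 and Trf), with list means of 11.37 to 11.42 in WT, 11.31 to 11.46 in HET and 11.08 to 11.28 in KO, and Alb was dim on the arrays. Of 9 primitive erythroid markers 5 were lower (Hbb-y, Alas2, Slc4a1, Epb42 and Tfrc, of which Hbb-y and Slc4a1 lost their calls without WT 1, WT 2, WT 3, KO 2 or KO 3, among others, and Tfrc without WT 1, WT 3 or KO 2), with means of 11.22 to 11.42, 11.14 to 11.47 and 10.67 to 11.11. Macrophage markers had 3 of 5 lower, with means of 7.26 to 7.48, 7.32 to 7.47 and 6.94 to 7.19, and Ptprc, Adgre1 and Lyz2 were dim. Endothelial markers had 2 of 8 lower (means 9.74 to 9.88, 9.64 to 9.86 and 9.65 to 9.71), and mesoderm markers 1 lower and 2 higher of 8 (10.91 to 11.01, 10.88 to 10.94 and 11.03 to 11.07). Heart and muscle markers had 0 lower and 1 higher of 9 (6.92 to 7.16, 7.12 to 7.13 and 6.91 to 7.48), with Myl2, Myh6 and Ttn dim. Trophoblast and parietal endoderm markers had 1 higher of 7 (8.96 to 9.72, 8.39 to 8.97 and 9.0 to 9.64; Tpbpa dim), and decidual markers 1 higher of 6 (7.91 to 8.36, 7.53 to 8.11 and 8.20 to 8.46; Hoxa11 and Pgr dim). Hand1, which was higher, is in both the mesoderm and the trophoblast list. The part of these cell types in the differences of the respiratory chain members was not tested.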

How the data were processed

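Total RNA of 9 yolk sac samples (100 ng each, 5.5 µg of cDNA) was hybridised to an Affymetrix whole-transcript array, per the labels. The authors deposited log2 signals per probe set, and the submitters' processing notes name RMA and Affymetrix Expression Console 1.2.1.20. For the array's genome build the sources used here give none. Of 28350 probe sets, 21780 named 1 symbol, 1618 several and 4952 none. The highest-mean probe set stood for a gene. Genes above the 40th percentile of their array on at least 3 arrays (13207 of 19933) were tested with limma 3.58.1 in R 4.3.3 (lmFit, eBayes, genotype as factor, all 9 arrays), with Benjamini-Hochberg adjustment and a threshold of 0.05. The fit was tested on simulated data. For arrays, their number limits the precision. Array medians were 7.07 to 7.20, arrays within a genotype correlated at 0.992 to 0.998, and 0 array pairs held identical values.

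Members and gene lists were chosen with earlier results of these data known, so lists are given as counts and medians without a set test. Named genes were Rnh1, members that passed, the 3 largest rises and falls per complex, the 3 smallest p per other comparison, tissue-restricted isoforms with their partners, the c subunit genes and up to 4 genes per list. Nrf1, Gabpa, Cycs, Pdhx, Idh3g and further members were named after their values were seen. Alternatives concerned the filter, probe sets, scaling, prior, weights, arrays, the Eif2s3y signal and thresholds. Promoters are from RefSeq (GRCm38.p6). Protein sequences were not used here.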

Additional observations from a re-analysis of the deposited data

How the results depend on the processing

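In KO against WT, 6 of the 20 lower members (Ndufs1, Ndufv1, Ndufa1, Sdha, Uqcrc1 and Uqcrc2) kept their call in all 21 alternative settings. Changes of the threshold are not among the 21, and none of the 6 reached a change of 1.5-fold. The count of lower members was 13 without the filter, after quantile normalization and after cyclic loess, 11 with only the 2 genotypes compared, 12 without WT 2 and KO 1, 0 at a change of at least 1.5-fold, and 6 to 20 without 1 array. Of all genes, 8.3% were lower without the filter, 14.7% after quantile normalization, 14.3% after cyclic loess and 11.2% with only the 2 genotypes compared. Higher members numbered 3 after quantile normalization and with array weights, 2 after cyclic loess, and 1 with a trended and robust prior and at an adjusted p under 0.1. The median of members was -0.18 with centred arrays, -0.06 after quantile normalization, -0.05 after cyclic loess and -0.12 to -0.08 without 1 array.

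Complex I had medians of -0.20 (centred), -0.06 (quantile), -0.07 (loess), -0.10 (without WT 2 and KO 1) and -0.16 to -0.08 without 1 array. Complex II ranged from -0.27 to -0.14 without 1 array. Complex III was at -0.18 (centred), -0.06 (quantile), -0.05 (loess), -0.13 (array weights) and -0.15 to -0.08 without 1 array. Complex IV was at -0.14 (centred), -0.02 (quantile) and -0.02 (loess), and its count of lower members, 0 as deposited, was 3 with the trended and robust prior and 1 with centred arrays, the replicate block, or WT 3 or KO 2 left out. Complex V was at -0.19 (centred), -0.06 (quantile), -0.06 (loess) and -0.16 to -0.09 without 1 array.

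In KO against HET, the lower count was 11 with Eif2s3y as a covariate, 0 at 1.5-fold and 11 to 21 without 1 array. Of all genes, 7.79% were lower with that covariate and 7.13% to 15.4% without 1 array, against 13.6% in the main fit. The higher count was 1 without WT 2 and KO 1 and 0 to 1 without 1 array. The median was -0.13 (centred), -0.06 (quantile) and -0.06 (loess). In HET against WT the median was -0.03 with centred arrays, and among all genes tested 2 were lower with array weights, 5 without WT 2, 4 without WT 2 and KO 1 and 1 without KO 1, against 0 in the other settings.

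Signs were followed across the settings for the named members only, which include every member that passed. Among them, signs turned, or came to 0, only for members that had not passed. These were Atp5l (centred -0.04, weights -0.03, without WT 2 and KO 1 -0.07, without 1 array -0.10 to 0.14) and Cox8c (centred 0, quantile -0.01, loess -0.01, without 1 array -0.03 to 0.19). Cox6b2 turned to 0.02 without WT 3, 0.03 without KO 2 and 0.04 without KO 3, and Cox8a to 0.01 (quantile) and 0.03 (loess). Others were Ndufa3 (quantile 0.05, loess 0.03, weights 0.03, without KO 3 0), Ndufa4 (quantile 0.02, loess 0.01), Ndufs6 (-0.02 without WT 2 and KO 1, -0.02 to 0.13 without 1 array), Cox6a1 and Uqcr10 (quantile 0), Atp5g3 (loess 0), Atp5j (quantile 0.04, loess 0.04, without WT 2 and KO 1 0.01), Sdhc (quantile 0.02, loess 0.01, without 1 array -0.26 to 0.09) and Ndufa11 (mean of probe sets 0.01, quantile 0.05, loess 0.04, weights 0.01, without WT 2 and KO 1 0.02, without 1 array -0.06 to 0.01). Among other genes, ND3 was at -0.02 to 0.20 and COX2 at -0.04 to 0.11 without 1 array, both lowest without KO 1, COX2 was at -0.02 (centred) and -0.03 (without WT 2 and KO 1), and Cycs was at 0.09 with the mean of its probe sets. The causes were not tested.

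Deviations from the group means correlated at -0.257 to 0.425 between same-numbered arrays and at -0.59 to 0.413 between differently numbered ones. The labels do not say whether the numbers mark a litter or batch, and with 3 arrays a genotype these correlations cannot settle it. With the replicate number as a block, 17 members were lower in KO than in WT and 17 than in HET, and Cox7a1 passed (adjusted p = 0.0116). With 3 arrays a genotype, small differences may be missed.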
